A study of Mus musculus with 17 samples.

Results

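The genes described here are 10 markers of resident macrophages and monocytes, namely Csf1r, Cd163, Mrc1, Lyve1, F13a1, Cd68, Lyz2, Ccr2, Cx3cr1 and Emr1, the last of which the files name Adgre1. They were chosen by gene name, not by a threshold on measured values, but with earlier results of these data known. The lists of other genes below were also written with those results known, so counts over them are descriptions. All 10 markers were found among the 13212 transcript entries of the deposited count tables. RNA was sequenced from whole vena cava of male C57BL/6J mice aged 10 to 12 weeks and from veins that had been taken from donor mice of this strain, slipped over cuffs and joined into the carotid artery of a recipient. The control group was vena cava that had not been grafted (n = 4), and grafts were explanted after 1 h (n = 4) or 6 h (n = 5) of arterial perfusion. Grafts perfused for 24 h were also sequenced, but the tables hold 5 columns of that name for 4 samples, so they were not analysed here and the comparison of 24 h with control was not made. No gene was altered in these mice. Donor and recipient shared a strain, so cells of the vein and cells that entered from the blood of the recipient cannot be told apart by sequence.

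Macrophages of the vessel wall live mainly in its outer coat, and many of them are settled before birth or soon after it and renew themselves on the spot, kept alive by ligands of the receptor that Csf1r encodes. Monocytes leave the bone marrow through the chemokine receptor CCR2, circulate, and enter injured tissue, where they can become macrophages. MRC1, LYVE1, CD163 and coagulation factor XIII subunit A (F13a1) mark settled macrophages of connective tissue, F4/80 (Emr1), CD68 and lysozyme (Lyz2) mark macrophages more broadly, and CCR2 and CX3CR1 mark the inflammatory and the patrolling monocytes of mice.

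Each library yielded between 7897624 and 11816124 counted reads. Levels are given as CPM, that is reads of a gene scaled to a common library size by TMM, which evens out differences in composition between libraries, and differences as log2 fold changes from a quasi-likelihood fit of all 13 libraries by edgeR. An entry was called changed at an adjusted p under 0.05 over the 11123 entries that passed a filter on low counts. Nothing in the labels ties a replicate to a separate animal, so p-values measure the spread between these libraries only. The titles of the 1 h samples carry another number (8) than those of the control and 6 h samples (7). It was read here as the sequencing lane, which the labels do not say. Effects of this number and of time thus cannot be told apart at 1 h against control or at 6 h against 1 h. Pairs of libraries within a group correlated at 0.680 to 0.797 in log2 CPM. Graft 1 h replicate 2 and graft 6 h replicate 5 lay away from their groups on the second multidimensional scaling axis, at 4.61 and 1.74. Whole tissue was sequenced, and CPM is a share of each library. Fewer macrophages, less RNA per macrophage and more RNA from other cells thus cannot be told apart in any value below.

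None of the markers that could be tested passed the threshold in grafts at 1 h or 6 h by edgeR. By 6 h 5 of 20 other genes of resident macrophages fell, where 1.59% of all entries fell against control. Of 13 genes listed for recruited monocytes, several of them shared with neutrophils, 7 rose, where 5.58% of all entries rose. Of the 10 markers, 8 passed the filter on low counts, and 0 of these 8 were called by edgeR at 1 h against control, where 1.13% of all entries tested were called. Again 0 of 8 were called at 6 h against control, where 7.17% of entries were, and 0 of 8 at 6 h against 1 h, where 3.65% were. Without adjustment, p was under 0.05 for 0, 1 and 2 markers in these comparisons, beside 7.97%, 20.1% and 15.6% of all entries. DESeq2 called 0 markers at 1 h, 1 marker, Emr1, at 6 h against control and 0 at 6 h against 1 h, beside 3.07%, 14.8% and 8.45% of the entries to which it gave an adjusted p. At 1 h against control no marker was free of overlap between the groups, beside 3.55% of entries that lay higher and 2.09% that lay lower without overlap. No marker lay higher without overlap at 6 h, beside 9.23% of entries against control and 6.49% against 1 h. The median log2 fold change of the 8 markers was -0.11 at 1 h, -0.64 at 6 h and -0.19 between 1 h and 6 h, beside -0.04, -0.05 and 0.00 for all entries tested.

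**Figure D1:**
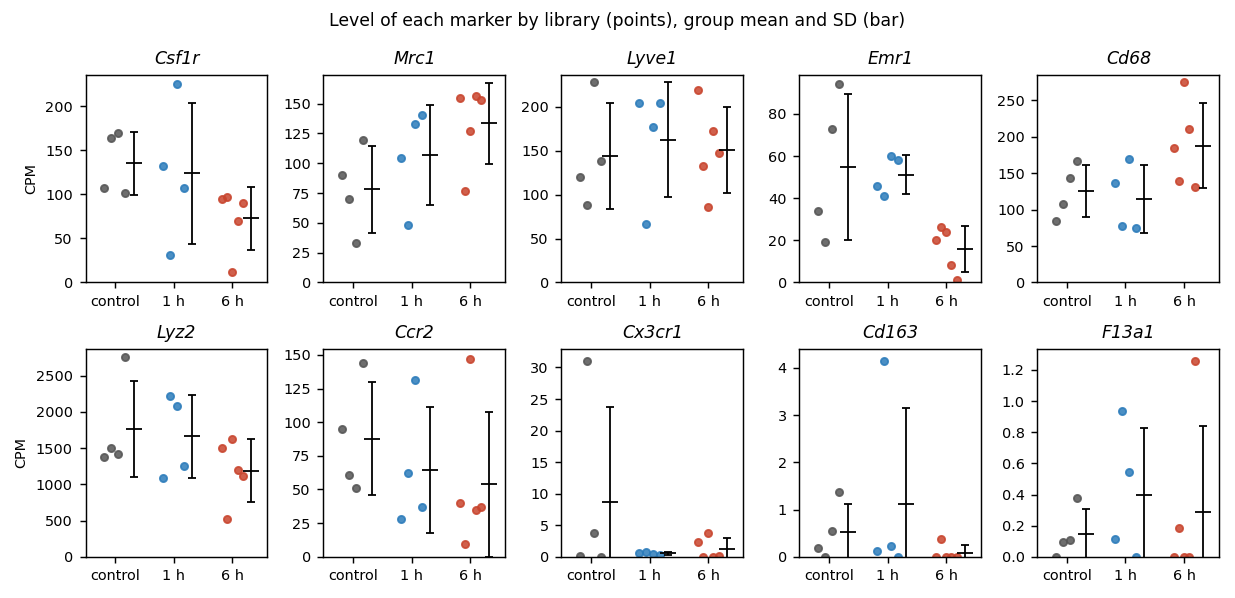
Level of each of the 10 markers in CPM (vertical axis, each panel with its own scale from 0) in control vena cava (n = 4) and in grafts after 1 h (n = 4) and 6 h (n = 5). Points are libraries and bars the group mean with SD, drawn no lower than 0. Csf1r was lower in every 6 h library (11.7 to 97.3 CPM) than in any control library (102 to 169 CPM), and Cd163 and F13a1 stayed under 5 CPM throughout.

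Csf1r encodes the receptor tyrosine kinase for colony-stimulating factor 1 and interleukin 34, on which survival of most tissue macrophages depends. Its gene lies on the plus strand of chromosome 18 (mm9, 61265226 to 61291803). In controls it stood at 108, 164, 169 and 102 CPM in replicates 1 to 4. In grafts at 1 h it stood at 132, 31.3, 226 and 108 CPM, so that these libraries spanned the range of the controls on both sides, with replicate 2 lowest. At 6 h it stood at 95.2, 97.3, 11.7, 69.5 and 89.8 CPM, and every one of these libraries was below every control library. Among the 8 markers tested, 1 was without overlap and lower at 6 h against control, which held for 5.32% of all entries. The mean was 136 ± 36 CPM in controls (SD, n = 4) and 72.7 ± 35.8 CPM at 6 h (SD, n = 5). The fitted log2 fold change was -0.90 (SE 0.54, 95% CI -2.04 to 0.25), with an adjusted p of 0.396 by edgeR. In an exact 2-sided permutation test of log2 CPM the p was 0.0159, the smallest that 5 against 4 libraries allow, and 0.238 after adjustment over 30 tests of 10 markers and 3 comparisons. Without graft 6 h replicate 3, its lowest library, the log2 fold change was -0.62.

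Emr1 encodes the adhesion receptor F4/80, the classic surface marker of mouse macrophages, and lies on chromosome 17 (mm9, 57498109 to 57622952, plus strand). In controls it ranged widely, at 33.8, 19.1, 72.7 and 94.0 CPM. At 1 h its level was 46.0, 41.0, 59.8 and 57.9 CPM, inside the range of the controls. At 6 h it stood at 20.1, 26.3, 24.1, 8.27 and 1.13 CPM. Every 6 h library was thus below every 1 h library, and 3 of the 5 lay between the lowest and the next lowest control. The log2 fold change at 6 h against control was -1.78 (SE 0.69, 95% CI -3.25 to -0.30, unadjusted p = 0.0212, adjusted p = 0.148 by edgeR). DESeq2 gave -1.84 with an adjusted p of 0.0496, the single value past the threshold among 415 values of members under alternatives, and the adjusted p ranged from 0.0496 to 0.337 over the 18 alternatives of this result. Against 1 h the log2 fold change was -1.68 (SE 0.69, adjusted p = 0.243 by edgeR), and the exact permutation p was 0.0159, or 0.238 after adjustment. The share of all entries without overlap and lower at 6 h than at 1 h was 3.13%, and 1 of the 8 markers tested was among them.

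Mrc1 encodes the mannose receptor CD206, an endocytic receptor of settled macrophages that some lymphatic and sinusoidal endothelia also carry. Its gene spans bases 14151041 to 14253684 of chromosome 2 (mm9, plus strand). It stood at 89.9, 70.2, 32.8 and 119 CPM in controls. At 1 h it stood at 105, 48.2, 133 and 141 CPM. At 6 h it stood at 154, 76.4, 127, 157 and 153 CPM. All 6 h libraries but replicate 2 lay above the highest control, and the groups overlapped through that library. The estimates were 0.45 at 1 h (SE 0.41, adjusted p = 0.999) and 0.77 at 6 h (SE 0.39, 95% CI -0.06 to 1.61, adjusted p = 0.296 by edgeR) on the log2 scale.

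Lyve1 encodes a receptor for hyaluronan that marks macrophages along vessels and also lymphatic endothelium. It lies on the minus strand of chromosome 7 (mm9, 117994121 to 118006467). Control libraries had 120, 88.2, 229 and 138 CPM of it. Grafts had 204, 66.4, 177 and 204 CPM at 1 h. At 6 h they had 219, 133, 85.6, 172 and 147 CPM. The 3 groups overlapped over most of their ranges, with graft 1 h replicate 2 lowest of all. The log2 fold change at 6 h was 0.07 (SE 0.37, 95% CI -0.71 to 0.86, adjusted p = 0.944 by edgeR), and its sign turned with the scaling: it was -0.30 when libraries were scaled by their totals, a scaling that moved the median of all entries from -0.05 to -0.46, and -0.038 with upper-quartile scaling. Of 6 lymphatic endothelial markers tested, 0 fell and 2 rose at 6 h (list median 0.36), where 1.59% of all entries fell and 5.58% rose. Pdpn (podoplanin) rose from 179 ± 34.7 to 936 ± 329 CPM (log2 fold change 2.39) and Nts (neurotensin) from 56.6 ± 24.4 to 1032 ± 445 CPM (4.19). Flt4, Reln and Sema3d did not pass. They had 11.7 to 54.4, 5.90 to 19.9 and 29.8 to 77.0 CPM in controls. At 6 h they had 10.8 to 55.4, 1.13 to 77.1 and 17.6 to 116 CPM. Prox1, the transcription factor that defines lymphatic endothelium, had 0 to 9.0 CPM in controls, 7.93 to 20.4 CPM at 1 h and 0 to 6.58 CPM at 6 h. How much of the Lyve1 signal came from lymphatic endothelium was not tested.

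Cd163 and F13a1 could not be read as tissue levels in these tables. CD163 is the scavenger receptor with which macrophages take up haptoglobin bound to haemoglobin, and F13a1 encodes the clot-stabilising subunit of factor XIII, made by settled macrophages and by platelet precursors. Cd163 (mm9 chromosome 6, 124254669 to 124280545, plus strand) had 2, 0, 5 and 18 counts in the controls, 1, 31, 2 and 0 at 1 h and 0, 4, 0, 0 and 0 at 6 h. F13a1 (chromosome 13, 36959047 to 37142113, minus strand) had 0, 1, 1 and 5 counts in controls, 1, 7, 5 and 0 at 1 h and 0, 2, 0, 0 and 10 at 6 h. Most of these libraries were at or near the limit of 3 counts that a count of 0 allows, which equals 0.228 to 0.401 CPM by library, and no fold change is given for either gene.

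Both genes were counted over several overlapping RefSeq transcripts. In the authors' table of all entries, symbols with 1 entry had a median mean of normalised counts of 19.2, and 9.17% of these 19127 entries were at a mean of 0. Among the 5288 entries of symbols with 2 entries the median was 0.0562 and 46.0% were at 0. Among the 5264 entries of symbols with 3 or more, 69.5% were at 0. Cd163 and F13a1 have 2 entries each, at authors' means of 3.86 and 0 for Cd163 and 4.09 and 0 for F13a1, whereas each of the other 8 markers has 1 entry. Itgam and Ctss, which encode the integrin CD11b and the protease cathepsin S of phagocytes, also have 2 entries each, and both entries of each were at a mean of 0. Whether reads shared by overlapping transcripts were left out of the counts was not tested.

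**Figure D2:**
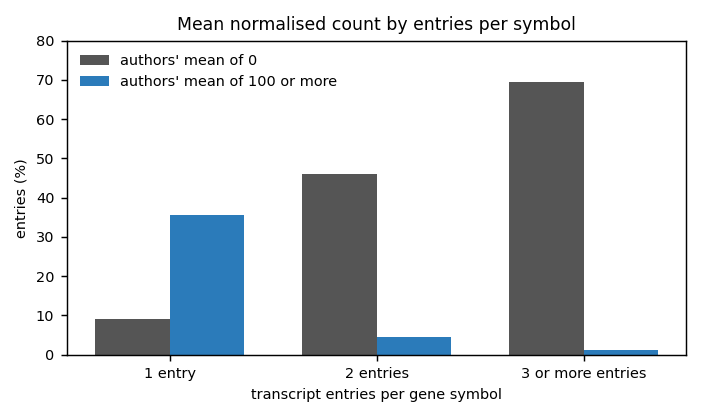
Share of transcript entries (vertical axis, percent) with an authors' mean of normalised counts of 0 (grey) and of 100 or more (blue), for gene symbols with 1, 2 and 3 or more entries in the authors' table. The share at 0 was 9.17%, 46.0% and 69.5%, and the share at 100 or more was 35.6%, 4.58% and 1.18%.

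Cd68 encodes a sialomucin of the lysosome and endosome of macrophages. It lies on chromosome 11 (mm9, 69477715 to 69479655, minus strand). It stood at 84.7, 108, 143 and 166 CPM in controls. Grafts at 1 h had 137, 77.8, 170 and 75.2 CPM, and grafts at 6 h had 184, 139, 275, 211 and 131 CPM. The 3 highest libraries of the whole set were 6 h grafts, while the other 6 h libraries lay within the range of the controls. The estimates at 6 h were 0.58 against control (SE 0.32, adjusted p = 0.353) and 0.71 against 1 h (SE 0.33, unadjusted p = 0.0451, adjusted p = 0.303 by edgeR) on the log2 scale.

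Lyz2 encodes lysozyme M, the bactericidal enzyme of macrophages, monocytes and neutrophils. It lies on chromosome 10 (mm9, 116714390 to 116719377, minus strand). Control libraries had 1377, 1497, 1417 and 2759 CPM of it, with replicate 4 far above the others. Grafts at 1 h had 1085, 2215, 2086 and 1258 CPM. At 6 h they had 1504, 518, 1625, 1195 and 1112 CPM, overlapping both other groups. The log2 fold change at 6 h was -0.57 (SE 0.32, 95% CI -1.26 to 0.12, adjusted p = 0.369 by edgeR). Its close paralog Lyz1, with which short reads may be shared, had 23.0 to 161 CPM. Neutrophils also make lysozyme, and the summed level of 15 neutrophil markers was 36.2 to 108 CPM in controls, 1258 to 10613 CPM at 1 h and 7733 to 67805 CPM at 6 h. The share of Lyz2 reads that came from neutrophils was not tested.

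Ccr2 encodes the receptor through which CCL2 and CCL7 draw inflammatory monocytes. It lies on chromosome 9 (mm9, 124016689 to 124028296, plus strand). It stood at 95.1, 60.8, 51.1 and 144 CPM in controls. At 1 h it stood at 27.9, 62.1, 131 and 37.3 CPM. At 6 h it stood at 40.0, 9.29, 147, 35.1 and 37.3 CPM. Of the 5 libraries at 6 h, 4 were below the lowest control and replicate 3 was above the highest. The log2 fold change at 6 h was -0.71 (SE 0.64, 95% CI -2.07 to 0.65, adjusted p = 0.614 by edgeR).

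Cx3cr1 encodes the fractalkine receptor of patrolling monocytes and of some settled macrophages. It lies on chromosome 9 (mm9, 119957811 to 119977400, minus strand). Its counts were 1, 332, 35 and 0 in controls, 5, 6, 4 and 3 at 1 h and 24, 0, 30, 0 and 1 at 6 h. It stood at 31.1 and 3.75 CPM in control replicates 2 and 3 and at 2.39 and 3.73 CPM in graft 6 h replicates 1 and 3, and under 1 CPM in every other library. Without either of these 6 h libraries it did not pass the filter on low counts. The estimate at 6 h was -2.79 (SE 1.88, adjusted p = 0.469 by edgeR), and it was -0.023 without control replicate 2. At 1 h it was -4.00 (SE 2.17, adjusted p = 0.757 by edgeR), and -1.19 without that library.

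**Figure D3:**
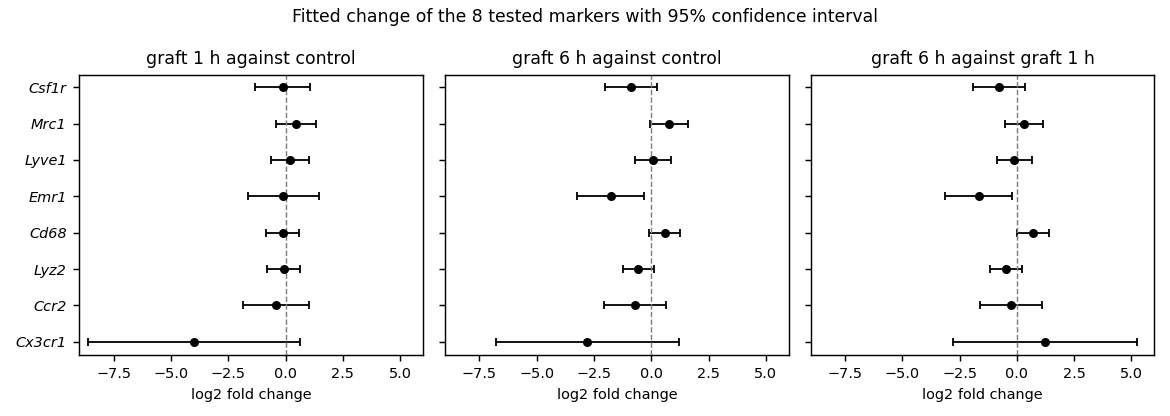
Log2 fold change (horizontal axis) of the 8 markers that passed the filter, from edgeR, in the 3 comparisons (panels). Points are estimates and bars 95% confidence intervals. The interval lay to one side of 0 for Emr1 at 6 h against control (-3.25 to -0.30) and against 1 h (-3.15 to -0.20) and for Cd68 at 6 h against 1 h (0.02 to 1.40), and no adjusted p was under 0.05.

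Levels of different genes were compared per kilobase of exon, since longer transcripts yield more reads. In control vena cava, Lyz2 stood highest at 1342 ± 507 CPM per kb (SD, n = 4), followed by Cd68 at 99.97 ± 28.9, Lyve1 at 55.1 ± 23.2, Csf1r at 25.9 ± 6.88, Emr1 at 16.9 ± 10.6, Ccr2 at 13.7 ± 6.55 and Mrc1 at 13.1 ± 6.10. The ranges of Lyz2 and Cd68 did not overlap, nor did those of Lyve1 and Csf1r, while Cd68 and Lyve1 and each pair of neighbours from Csf1r down to Mrc1 overlapped. At 6 h the order was Lyz2, Cd68, Lyve1, Mrc1, Csf1r, Ccr2 and Emr1, with Mrc1 at 22.4 ± 5.74 and Csf1r at 13.9 ± 6.85 CPM per kb, whose ranges overlapped.

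The scaling of libraries nearly cancels in ratios of markers within a library, and 8 ratios were tested in 3 comparisons. The log2 ratio of Mrc1 to Csf1r was -0.26, -1.22, -2.36 and 0.23 in controls. At 6 h it was 0.70, -0.35, 3.42, 1.17 and 0.77. Only replicate 2 of the 6 h grafts lay within the range of the controls, and the means differed by 2.04 (exact permutation p = 0.0476, adjusted p = 0.571 over 24 tests). The log2 ratio of Cd68 to Csf1r was -0.34, -0.60, -0.24 and 0.71 in controls. At 6 h it was 0.95, 0.51, 4.53, 1.60 and 0.54, with replicates 2 and 5 inside the range of the controls. The means differed by 1.74 (exact permutation p = 0.0476, adjusted p = 0.571), and by 1.02 without graft 6 h replicate 3, the library lowest in Csf1r. Without that library the difference for Mrc1 was 1.47. The ratios of Lyz2 and of Ccr2 to Csf1r differed by 0.57 and 0.06 at 6 h, with adjusted p-values of 1 each. Ratios with Cd163, F13a1 and Cx3cr1 rest on counts near 0 and are not given.

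**Figure D4:**
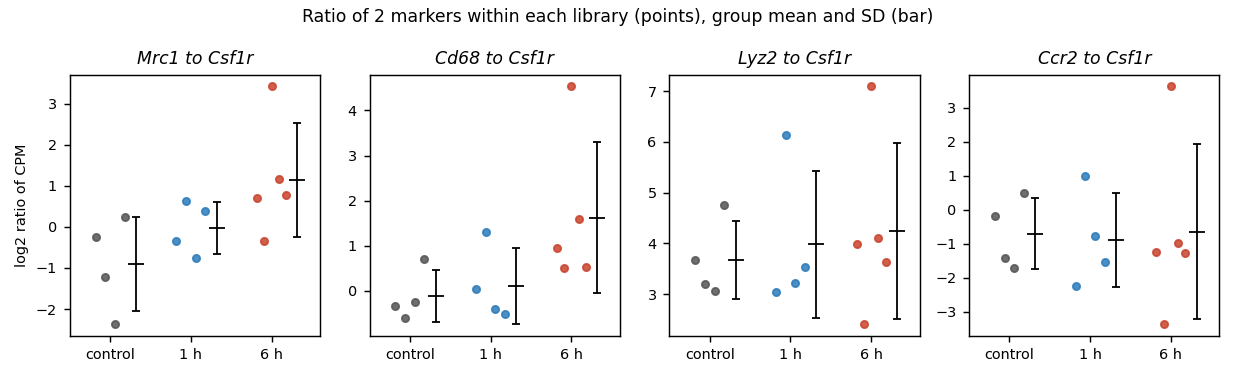
Log2 ratio of the CPM of 2 markers within each library (vertical axis, each panel with its own scale) in control vena cava (n = 4) and in grafts after 1 h (n = 4) and 6 h (n = 5). Points are libraries and bars the group mean with SD. For Mrc1 to Csf1r and for Cd68 to Csf1r the point far above the others at 6 h (3.42 and 4.53) is replicate 3.

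After group means were subtracted, Lyz2 and Ccr2 varied together over the 13 libraries (Pearson r = 0.86) and so did Csf1r and Lyve1 (0.71). Csf1r and Ccr2 had an r of -0.51. Graft 1 h replicate 2 and graft 6 h replicate 3 were each lowest of their group in both Csf1r and Lyve1. How far the r of 0.71 rests on them was not tested. These values of r are descriptions, and libraries share depth and scaling. The entries most like Csf1r in this sense were Ugt1a6a (0.96), Cnot10 (0.95) and Ptdss2 (0.93). Those most like Lyve1 were Ap3b1 (0.95), Gatsl2 (0.93) and Tnks (0.93). Those most like Ccr2 were Cdc42 (0.92), B2m (0.89) and Gga1 (0.84), and among those most like Lyz2 were Rab8b (0.88) and the macrophage gene Aif1 (0.87). In control replicate 4, the library highest in Lyz2, Ccr2 and Emr1 among the controls, the summed level of 10 mast cell and lymphocyte markers was 1696 CPM and that of 10 dendritic cell markers 7777 CPM, beside 425 to 878 and 2409 to 4237 CPM in the other controls. The part of blood or lymph node cells in these values was not tested.

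Some genes that settled macrophages express beside the 10 markers were lower at 6 h. Of 25 such genes listed, 20 had 1 entry and were tested, and at 6 h against control 0 rose and 5 fell, with a list median of -1.33 beside -0.05 for all entries. Over all entries 5.58% rose and 1.59% fell in this comparison. The fallen genes were Fcgrt, Cbr2, Cd209f, Maf and Stab1, the last named after its values were seen. Fcgrt, which encodes the neonatal Fc receptor that recycles immunoglobulin G and albumin, fell from 733 ± 76.7 CPM in controls (SD, n = 4) to 301 ± 61.4 CPM (SD, n = 5), a log2 fold change of -1.29 (SE 0.19, adjusted p = 0.000444 by edgeR). Endothelium expresses it too. Cbr2, a carbonyl reductase, fell from 110 ± 19.6 to 40.0 ± 18.1 CPM (-1.46, SE 0.32, adjusted p = 0.00923). Cd209f, a C-type lectin of the DC-SIGN family, fell from 85.8 ± 23.3 to 23.7 ± 14.3 CPM (-1.86, SE 0.42, adjusted p = 0.0115). Maf, a transcription factor of macrophage identity, fell from 232 ± 97.1 to 107 ± 25.6 CPM (-1.11, adjusted p = 0.0289), and Stab1, the scavenger receptor stabilin-1, from 96.0 ± 25.2 to 37.1 ± 13.5 CPM (-1.37, adjusted p = 0.0427). The summed level of the 20 genes was 2390 to 2873 CPM in controls, 2039 to 2407 CPM at 1 h and 1026 to 1531 CPM at 6 h, so that the 6 h libraries did not overlap either other group. Fcgrt and C1qb weighed most in this sum, with C1qb at 524 ± 128 CPM in controls and 318 ± 92.0 CPM at 6 h. At 1 h 0 of the 20 rose and 0 fell by edgeR, by DESeq2 and at an unadjusted p under 0.05, with a median of -0.17 and with 1.12% of all entries higher and 0.00899% lower by edgeR. Against 1 h, 5 of 20 fell at 6 h, namely Fcgrt, Cbr2, Cd209f, Stab1 and C1qa, a subunit of complement C1q, where 2.63% of all entries rose and 1.02% fell. The median of the 20 genes was -0.67 in that comparison. Mural and fibroblast markers fell there as well, 5 of 9 with a median of -1.09, namely Col3a1 (-1.96), Col1a2 (-1.25) and Col1a1 (-1.10), which encode chains of fibrillar collagens, and Acta2 and Tagln of smooth muscle, these last named after their values were seen. Their count was 3 without graft 1 h replicate 1 or 4 or graft 6 h replicate 1, 2 or 5. Against control, 1 of these 9 markers fell at 6 h (median -0.38) and 1 rose at 1 h (median 0.47). Whether the falls of the macrophage list and of wall cell genes were linked was not tested. The count of 5 lower than control was 3 without control replicate 1 or without graft 6 h replicate 2, 3 or 4, 3 in a fit of the 2 groups alone and 8 by DESeq2. Fcgrt, Cbr2 and Cd209f passed under every alternative against control, and the adjusted p of Maf ranged from 0.00405 to 0.135, being lost without control replicate 1 or 2, without graft 6 h replicate 2, 3 or 4 or with the 2 groups alone. The count of 5 lower than at 1 h ranged from 2 to 6 over the alternatives, and was 2 without graft 1 h replicate 2 or 4, without graft 6 h replicate 3 or 4 or with the 2 groups alone. It was 3 without replicate 1 of either group or without both libraries that stood apart. Cd209f lost its call against 1 h with the 2 groups alone and without graft 1 h replicate 1, 2 or 4 or graft 6 h replicate 3 or 4.

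Several genes of monocytes that enter tissue, and of activated myeloid cells, rose. Of 21 listed, 13 had 1 entry and were tested. At 1 h 4 rose and 0 fell (median 0.91), where 1.12% of all entries rose and 0.00899% fell. At 6 h 7 rose and 0 fell (median 1.62), where 5.58% of all entries rose and 1.59% fell. With scaling by library totals 1 was lower at 6 h. Cd14, the co-receptor for bacterial lipopolysaccharide, rose from 83.5 ± 14.4 CPM in controls to 615 ± 167 CPM at 1 h (log2 fold change 2.88, SE 0.37, adjusted p = 0.000365 by edgeR) and 5752 ± 3408 CPM at 6 h (6.11, SE 0.43, adjusted p = 2.05e-07). Thbs1, the matrix glycoprotein thrombospondin-1, which platelets and vessel wall cells also make, rose from 102 ± 22.2 to 298 ± 48.8 CPM at 1 h and 4857 ± 1426 CPM at 6 h. Trem1, a receptor of monocytes and neutrophils that amplifies inflammation, had 0.241 ± 0.120 CPM in controls, 123 ± 83.6 CPM at 1 h and 618 ± 496 CPM at 6 h. Ifitm3, an interferon-induced membrane protein, rose from 798 ± 189 to 1685 ± 254 CPM at 6 h. The 7 genes that rose at 6 h included these 4, and the others are not named here. Further genes of the list did not pass at 6 h, and the following of these were chosen after their values were seen. Ly6c2, which encodes the surface antigen of inflammatory monocytes, had 16.5 to 77.4 CPM in controls and 23.8 to 134 CPM at 6 h (0.57, adjusted p = 0.703 by edgeR), Ms4a4c had 10.8 to 69.8 and 31.6 to 66.5 CPM (0.59, adjusted p = 0.724), and Fn1, fibronectin, had 774 ± 174 and 554 ± 139 CPM (-0.48, adjusted p = 0.281). Neutrophils express Cd14, Trem1 and other genes of this list. Of 13 neutrophil markers tested, 9 rose and 0 fell at 6 h, with a median of 9.01, or 7.95 with Camp at the bound that its 0 counts in controls allow, and S100a9, a calcium-binding protein of neutrophils and monocytes, stood at 4.19 ± 2.62 CPM in controls, 1975 ± 1468 CPM at 1 h and 4814 ± 5668 CPM at 6 h. Monocyte and neutrophil shares of these rises cannot be told apart here.

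Among 14 genes shared by most leukocytes or phagocytes, 0 rose and 0 fell at 1 h by edgeR (median 0.45), while 3 were higher at an unadjusted p under 0.05, 1 by DESeq2 and 1 by edgeR without graft 1 h replicate 4. Over all entries 1.12% rose and 0.00899% fell at 1 h by edgeR, and 5.58% rose and 1.59% fell at 6 h. At 6 h 5 of the 14 rose and 0 fell by edgeR (median 1.05). By DESeq2, with scaling by library totals or upper quartiles and without graft 6 h replicate 1, 1 was lower. The lowest estimate of the list at 6 h by edgeR was that of Aif1 (-1.86), named after its values were seen. It had 33.1 to 98.6 CPM in controls, 20.9 to 62.5 CPM at 1 h and 5.35 to 27.8 CPM at 6 h. The genes that rose at 6 h by edgeR were Fcgr3, Csf2rb, Cd53, Fcer1g and Tyrobp, the last named after its values were seen. Fcgr3, an activating receptor for immunoglobulin G, rose from 80.4 ± 19.9 CPM in controls to 401 ± 124 CPM at 6 h (2.32, SE 0.30, adjusted p = 0.000106 by edgeR). Csf2rb, the shared signalling chain of the receptors for GM-CSF, interleukin 3 and interleukin 5, rose from 39.5 to 154 CPM over the controls to 312 to 698 CPM at 6 h (2.59, SE 0.40, adjusted p = 0.000557). Cd53, a tetraspanin of leukocytes, and Fcer1g, the signalling chain of Fc receptors, had log2 fold changes of 2.57 and 2.25.

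**Figure D5:**
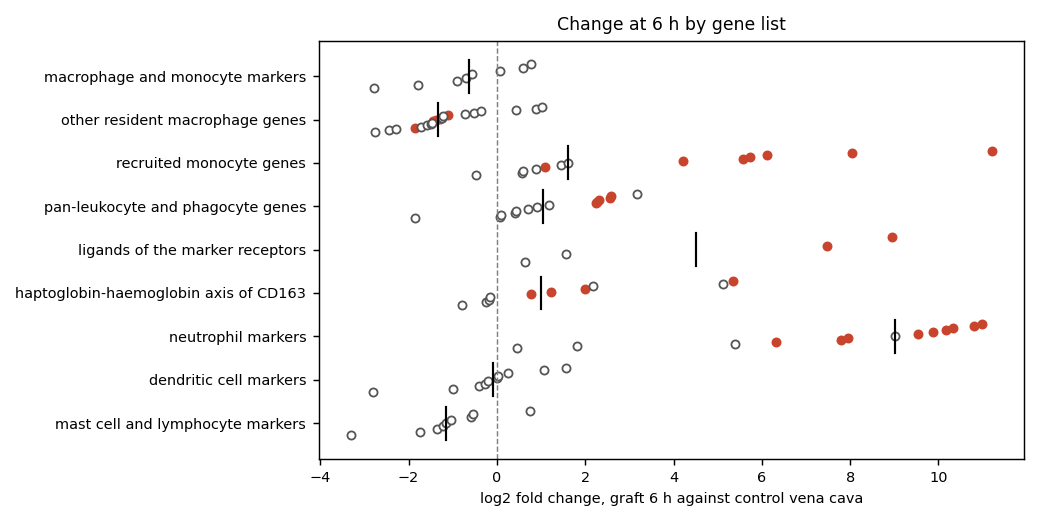
Log2 fold change at 6 h against control vena cava (horizontal axis) of the genes tested in each list (rows), with 1 point per gene and a black line at the list median. Filled points passed an adjusted p under 0.05 by edgeR and open points did not. Of all entries tested, 5.58% were higher and 1.59% lower. None of the 8 macrophage and monocyte markers passed, 5 of 20 other resident macrophage genes were lower, and 7 of 13 recruited monocyte genes and 9 of 13 neutrophil markers were higher; 1 neutrophil marker, Camp, had no count in the controls, so that its fitted value there is no measure of size.

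Of 4 ligands tested, 2 rose at 1 h and at 6 h, Ccl2 and Ccl7, while Ccr2 itself did not pass. Of all entries, 1.12% rose at 1 h and 5.58% at 6 h. Ccl2, the main ligand of CCR2, stood at 31.6 ± 7.16 CPM in controls, 711 ± 246 CPM at 1 h (log2 fold change 4.49, SE 0.32, adjusted p = 5.05e-07 by edgeR) and 15541 ± 5304 CPM at 6 h (8.94, SE 0.39, adjusted p = 1.00e-09). Ccl7, a further ligand of CCR2, stood at 38 ± 11.5, 796 ± 353 and 6725 ± 3009 CPM (4.39 and 7.47, adjusted p = 1.43e-05 and 6.03e-08). No library of one group overlapped another for either gene. Ccl12, another CCR2 ligand of mice, had log2 fold changes of 1.75 at 1 h (adjusted p = 0.361) and Cx3cl1, the ligand of CX3CR1, of 0.63 at 6 h (adjusted p = 0.842 by edgeR). Csf1 and Il34, the ligands of the receptor that Csf1r encodes, have 3 and 2 entries and were left out of these counts. The Csf1 entry had 0.608 to 2.84 CPM in controls, 0 to 3.85 CPM at 1 h and 1.48 to 17.9 CPM at 6 h. Il34 had 0 to 0.456 CPM in controls and 0 to 2.65 CPM at 6 h. With genes of several entries included, 5 ligands were tested and 2 rose at 6 h by edgeR.

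Genes around the haptoglobin-haemoglobin axis, which CD163 serves, were also measured. The list mixes in genes of the glucocorticoid response, namely Nr3c1, Fkbp5 and Tsc22d3, so its counts are not of the axis alone. Of 10 tested, 0 rose and 0 fell at 1 h by edgeR, by DESeq2 and at an unadjusted p under 0.05 (median 0.58). Over all entries 1.12% rose and 0.00899% fell there by edgeR. At 6 h 4 of the 10 rose and 0 fell (median 1.00), namely Hmox1, Fkbp5, Hp and Ftl1, where 5.58% of all entries rose and 1.59% fell. Hmox1, haem oxygenase 1, which breaks haem down, rose from 33.6 ± 26.6 CPM in controls to 1369 ± 969 CPM at 6 h (log2 fold change 5.35, SE 0.70, adjusted p = 0.000122 by edgeR). Fkbp5, a glucocorticoid-induced chaperone partner, rose from 33.5 ± 4.96 to 135 ± 42.9 CPM (2.01, adjusted p = 0.00178), and Hp, haptoglobin, from 3464 ± 351 to 8076 ± 2734 CPM (1.22, adjusted p = 0.0126). Ftl1, the ferritin light chain, rose from 1748 ± 93.6 to 3002 ± 892 CPM (0.78, adjusted p = 0.0421). The count of 4 was 2 without control replicate 2, where Hp and Ftl1 were lost, and with scaling by library totals it was 2 higher and 1 lower. The adjusted p of Ftl1 ranged from 0.0269 to 0.243 over the alternatives, and its call was also lost without any other control or without graft 6 h replicate 2, 3 or 5.

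Markers of other cells were counted in the same way. Over all entries 1.12% rose and 0.00899% fell at 1 h by edgeR, and 5.58% rose and 1.59% fell at 6 h. Between 1 h and 6 h 2.63% rose and 1.02% fell. Of 10 dendritic cell markers, 0 rose and 0 fell in each comparison by edgeR, by DESeq2 and at an unadjusted p under 0.05 (medians -0.39 at 1 h and -0.10 at 6 h), with Siglech at -2.81, Ccr7 at 1.57 and H2-Ab1 at -0.41 at 6 h and Batf3 at -1.77 at 1 h on the log2 scale. Of 9 mast cell and lymphocyte markers, 0 rose and 0 fell by the same 3 criteria (medians -0.93 and -1.16), and Ms4a1, the B cell antigen CD20, had 136 to 626 CPM in controls and 0.0938 to 87.6 CPM at 6 h (-3.30, adjusted p = 0.324). Cma1, Cd3g and Cd3e had estimates of -1.03 and -1.74 at 6 h and -1.48 at 1 h. Of 9 platelet markers, 3 rose at 1 h and 7 at 6 h, with Ppbp, Pf4, Gp9 and Gp6 among the latter, and Pf4 at 220 ± 51.8 CPM in controls and 1638 ± 1479 CPM at 6 h. The count of 3 was 6 by DESeq2 and 1 without both libraries that stood apart. Of 7 blood endothelial markers, 0 rose at 1 h by edgeR. There 3 were higher at an unadjusted p under 0.05, 1 by DESeq2 and 1 by edgeR without graft 1 h replicate 3. At 6 h 1 rose by edgeR, Cdh5, the junction protein VE-cadherin (1.95, adjusted p = 0.00170), and 2 by DESeq2. Vwf (1.43) and Tie1 (0.98) at 1 h and Cldn5 (2.28) at 6 h did not pass by edgeR. Of 9 mural and fibroblast markers, 1 rose at 1 h, Col1a1 (1.00, adjusted p = 0.0445, from 0.00262 to 0.155 over the alternatives and above the threshold without any 1 control, without graft 1 h replicate 1, 3 or 4, with scaling by library totals and with the 2 groups alone). At 6 h 1 fell, Col3a1 (-1.50), and this count was 4 with scaling by library totals. It was 3 by DESeq2, with upper-quartile scaling or without control replicate 4. With a filter of at least 50 counts in 4 libraries or without graft 6 h replicate 3 it was 2. Lum stood at -0.68 at 6 h without passing. The part of these shifts in cell makeup in the levels of the 10 markers was not tested.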

How the data were processed

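The authors sequenced amplified low-input RNA as single 50-base reads. Per the study's methods and labels, they checked reads with FastQC 0.11.5, aligned them with gsnap to mm9, counted them per UCSC RefSeq transcript with HTSeq 0.5.4p3 and used DESeq2 1.14.1 for their comparisons. Raw counts for each transcript entry, not normalized, were taken from the deposited tables. The deposited table of all entries gives the authors' mean over all libraries of counts divided by size factors, a signal used here only to describe entries per symbol. Its fold changes and p-values, the results of the authors' own comparisons, were not used. Columns named 24 h, 30 over all tables, match no sample and were not used.

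Members and lists were chosen with earlier results of these data known. Members were matched by symbol, taking the entry with the highest mean raw count. Coordinates and exon lengths come from GENCODE vM1 on the mm9 assembly. Symbols were read from the files for 12326 entries and from RefSeq for 803, and 83 entries have none. Column names give the group but not the sample, so replicate numbers are column numbers. Controls held 8569614 to 11029712 counts per library, grafts at 1 h 7897624 to 8359934 and grafts at 6 h 10171059 to 11816124.

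Counts were fitted with edgeR 4.0.16 in R 4.3.3 (filterByExpr by group, TMM, robust quasi-likelihood F-test, no covariate), with 2-sided p-values adjusted by Benjamini and Hochberg over 11123 entries. The biological coefficient of variation was 1.03. Log2 CPM used a prior count of 2. Single markers and ratios were tested by exact 2-sided permutation in SciPy, whose smallest p was 0.0286 for 4 against 4 and 0.0159 for 5 against 4 libraries. The floor of 3 counts takes no account of PCR copies, which carried no molecular identifiers. Named genes are all members, up to 4 genes with the smallest p of each list, and the ligands. List counts use genes with 1 entry in the authors' table, a choice made after seeing the data. Scripts were tested on simulated data with less spread between libraries than these data have. That test checks the code, not how often changes are found at the spread seen here. Alternatives were DESeq2 1.42.0, 2 other scalings, 2 other filters, the 2 compared groups alone, 1 entry per symbol, other prior counts and each library left out. Symbols with 1 entry only, and leaving out together the pair of libraries that stood apart, were added after seeing the data. An entry among those most like Lyz2 is not reported here.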

Additional observations from a re-analysis of the deposited data

Results flagged for a closer look

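In 42 groups of libraries, made of the log2 CPM of the 10 markers and 4 of their ratios in 3 conditions, 6 had a highest or lowest library far from the rest by Dixon's criterion, where chance gives about 1 in 20. Csf1r was lowest in graft 6 h replicate 3, at a log2 CPM of 3.57, and the log2 ratio of Cd68 to Csf1r was highest in that library, at 4.53. Lyve1 was lowest in graft 1 h replicate 2, at a log2 CPM of 6.06, and the log2 ratio of Lyz2 to Csf1r was highest there, at 6.13. Lyz2 was highest in control vena cava replicate 4, at a log2 CPM of 11.43. Cd163 was highest at 6 h in replicate 2, at a log2 CPM of -0.78, which stands for 4 counts where the other 6 h libraries had 0.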

How the results depend on the processing

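No marker passed the threshold under any alternative except Emr1 at 6 h against control by DESeq2, which brought the count of markers called there to 1. DESeq2 called 334 entries at 1 h, 1604 at 6 h and 918 between 1 h and 6 h, where edgeR called 126, 798 and 406. With scaling by library totals, 453 entries were higher and 604 lower at 6 h, in place of 621 and 177. Between 1 h and 6 h these were 171 and 239 in place of 293 and 113, and the median of all entries moved from 0.00 to -0.31. Leaving out 1 library at a time brought the 406 entries to between 228 and 325.

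Signs of the following estimates turned, none of which had passed the threshold. Without both libraries that stood apart, Csf1r, Cd68 and Emr1 at 1 h were at 0.21, 0.028 and 0.0014. With library totals, Lyve1 at 6 h was at -0.30 in the fit and -0.32 in mean log2 CPM (-0.038 and -0.023 with upper quartiles), and Mrc1 between 1 h and 6 h at -0.020. With 1 library left out at a time, the fitted estimates at 1 h ranged from -0.58 to 0.19 for Csf1r, -0.38 to 0.070 for Cd68, -0.26 to 0.26 for Lyz2 and -0.33 to 0.32 for Emr1. At 6 h Lyve1 ranged from -0.097 to 0.39. Between 1 h and 6 h Lyve1 ranged from -0.36 to 0.046 and Ccr2 from -1.08 to 0.34. Differences in mean log2 CPM at 1 h ranged from -0.78 to 0.16 for Csf1r, -0.068 to 0.52 for Lyve1, -0.39 to 0.0015 for Cd68, -0.25 to 0.15 for Lyz2, -2.21 to 0.20 for Cx3cr1 and -0.28 to 0.48 for Emr1. For Cx3cr1 at 1 h and 6 h the values above 0 came without control replicate 2. At 6 h the differences ranged from -0.11 to 0.35 for Lyve1 and -2.29 to 0.12 for Cx3cr1, and between 1 h and 6 h from -0.43 to 0.15 and -0.71 to 0.35. Ratios to Csf1r at 1 h ranged from -0.81 to 0.27 for Ccr2, -0.41 to 0.67 for Lyz2 and -0.18 to 0.50 for Cd68. At 6 h they ranged from -1.01 to 0.74 for Ccr2 and -0.14 to 1.03 for Lyz2, and between 1 h and 6 h from -0.82 to 0.92 and -0.45 to 0.98. Causes were not tested.

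No paired analysis was possible because the count columns carry no number that the labels tie to a sample. The spread between libraries of a group, with a biological coefficient of variation of 1.03, limits what could be called. Counts of Cd163 and F13a1 were too few to be read, for a reason that was not tested, and Cx3cr1 rested on few libraries.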
